A study of Mus musculus with 6 samples.

Results

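Splicing regulators are the RNA-binding proteins that decide which exons of a pre-mRNA are joined. They were followed here in mouse quadriceps muscle of the thigh after deletion of the transcription factor gene Klf15 in muscle. Members were taken by gene name: the SR proteins (Srsf), the heterogeneous nuclear ribonucleoproteins (Hnrnp), the muscleblind proteins (Mbnl), and the Rbfox, Celf and polypyrimidine tract-binding (Ptbp) families, with Rbm20 and Rbm24. Of 47 rows of the expression matrix with such a name, 41 genes had a mean of at least 1 FPKM over the 6 libraries and are the members, out of 23314 genes in all. FPKM counts sequenced fragments scaled by transcript length and by the size of the library, so levels of different genes can be set side by side. Celf3, Celf4, Celf5, Mbnl3 and Rbfox3 were left out for low values, with 0.110 FPKM the highest of them in any library, and the pseudogene Hnrnpa1l2-ps was left out by name. The lowest members were Ptbp3 and Hnrnpa3, with means of 2.06 and 3.63 FPKM. The highest of those left out for low values were Celf4 and Mbnl3, with 0.0501 and 0.0343 FPKM, so none lay close to the minimum.

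The control group, MyoCre, had the genotype Myogenin-Cre/+, which drives Cre recombinase from Myogenin, a gene switched on as myoblasts differentiate. The knockout group, K15SKO, carried the same Cre with K15F/F, the floxed Klf15 gene, so every library of both groups has Cre. All mice were 2 months old, no treatment is given, and each group held 3 libraries of total RNA, while the design text speaks of n = 4. The labels do not say that libraries came from separate animals, so the spread between them may be technical. Cells of the tissue that never switch on Myogenin, such as vessel and immune cells, are outside the reach of this Cre. Klf15 itself measured 35.2, 28.4 and 30.5 FPKM in MyoCre 1 to 3, against 2.22, 21.7 and 5.32 FPKM in K15SKO 1 to 3, where K15SKO 2 was the highest (log2 difference −2.06, adjusted p = 0.273 in limma). All K15SKO values lay below the controls, but K15SKO 2 kept a level close to them. The knockout libraries also stood apart from one another. The sum of the muscle fibre markers was low in K15SKO 1 and 2, and liver transcripts were high in K15SKO 2. K15SKO 3 lay nearest to the controls. Values with and without these libraries follow the results.

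SR proteins mostly bind enhancer sequences in exons and promote their inclusion, and hnRNPs often oppose them; both kinds are made in nearly all cells. On top of them, a smaller set of factors sets the splicing pattern of mature muscle. Mbnl proteins promote adult exon choices and are trapped by repeat RNA in myotonic dystrophy, Celf proteins oppose them at many of the same exons, Rbfox proteins bind UGCAUG next to muscle exons, Rbm20 shortens titin and other sarcomere transcripts by exon skipping, and Rbm24 promotes inclusion of muscle exons. Ptbp1 represses muscle and neuronal exons in undifferentiated cells. FPKM per gene gives the level of each regulator and not the isoforms it makes.

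Of the 9 members whose groups did not overlap, 6 were Mbnl, Rbfox, Celf or Rbm genes. Mbnl1, Mbnl2, Rbfox1, Celf2 and Rbm20 were lower in 3 of 3 K15SKO libraries with no overlap between the groups, and Rbfox2 was higher in 3 of 3. In bulk tissue, fewer cells of a type and less RNA per cell cannot be told apart. The SR proteins showed no such member, and of the hnRNPs only Hnrnpl, Hnrnpab and Hnrnpd did, all higher. No member passed an adjusted p of 0.05 in limma, a linear model fitted to log2(FPKM + 1) of all 11607 genes with a mean of at least 1 FPKM. That count of 0 of 41 stands beside 0.0517% of all genes tested, with 0.0172% higher and 0.0345% lower. At an unadjusted p under 0.05 there were 8 members, 3 higher and 5 lower, 19.5% of the 41 against 16.5% of all genes tested (8.43% higher and 8.12% lower). The share over all members was thus near that of all genes, and 9 of 41 members had groups that did not overlap, 22.0% against 24.7% of all genes (13.4% higher and 11.3% lower). Over the Mbnl, Rbfox, Celf and Rbm members the count at an unadjusted p under 0.05 was 6 of 8 (75.0%), and over the Srsf, Hnrnp and Ptbp members it was 2 of 33 (6.06%). This split into 2 sets was made with the values known and has no test.

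Promoter sequence is shown for Mbnl1, Mbnl2 and Rbfox1, the members with the highest levels among those that were lower in all K15SKO libraries. Each run is the 250 bases before a RefSeq start on GRCm38.p6, 5′ to 3′ on the plus strand, and the bases after the start are not shown. Capitals mark CACCC or its complement GGGTG, the kind of short GC-rich box that Krüppel-like factors are known to bind.
Mbnl1, chr3:60472580-60472829: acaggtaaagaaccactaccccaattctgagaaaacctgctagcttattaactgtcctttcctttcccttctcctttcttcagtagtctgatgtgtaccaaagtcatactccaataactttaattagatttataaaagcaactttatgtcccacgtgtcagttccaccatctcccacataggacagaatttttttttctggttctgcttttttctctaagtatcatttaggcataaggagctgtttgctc
Mbnl2, chr14:120275419-120275668: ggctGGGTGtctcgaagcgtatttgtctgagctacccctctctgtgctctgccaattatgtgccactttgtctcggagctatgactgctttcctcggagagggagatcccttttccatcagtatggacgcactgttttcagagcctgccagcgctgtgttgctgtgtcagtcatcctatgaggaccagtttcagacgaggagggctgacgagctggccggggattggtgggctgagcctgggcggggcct
Rbfox1, upstream start, chr16:5884543-5884792: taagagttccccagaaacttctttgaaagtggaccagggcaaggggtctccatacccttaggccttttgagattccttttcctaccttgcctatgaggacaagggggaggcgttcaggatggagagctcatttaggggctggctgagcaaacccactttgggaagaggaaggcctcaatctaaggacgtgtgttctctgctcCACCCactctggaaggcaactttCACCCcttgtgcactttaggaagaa
Rbfox1, downstream start, chr16:7069585-7069834: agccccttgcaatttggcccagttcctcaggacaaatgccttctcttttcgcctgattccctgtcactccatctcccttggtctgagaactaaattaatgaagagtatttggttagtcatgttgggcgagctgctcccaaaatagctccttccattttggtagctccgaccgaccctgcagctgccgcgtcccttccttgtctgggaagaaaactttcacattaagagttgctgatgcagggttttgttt
The Mbnl2 window holds 1 match, the upstream Rbfox1 window 2, and the windows of Mbnl1 and of the downstream Rbfox1 start shown here none. A second Mbnl1 window, at chr3:60500929-60501178, holds 1 match and is not printed because part of it is annotated as transcribed. Over the 54 windows of 36 members with a RefSeq entry, CACCC on either strand was present in 51.9%, against 52.0% of all 32851 windows and 57.3% of the 10617 windows of genes tested. The GC box GGGCGG, searched on both strands, was present in 70.4% of the members' windows against 57.1% of those of genes tested, where the median GC content was 63.0% and 59.6%. The E box CAGCTG was present in 11.1% against 12.0%. A match is a run of letters, and whether a factor binds there was not measured; the data do not say which start is used.

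Mbnl1, the main muscleblind gene of muscle, was the member with the largest difference. It measured 121, 129 and 133 FPKM in the controls, against 45.8, 68.1 and 99.2 FPKM in K15SKO 1 to 3. All K15SKO values lay below all MyoCre values, and K15SKO 1 was the lowest. The means were 128 ± 5.79 and 71.0 ± 26.8 FPKM (SD, n = 3 each), so the knockout mean was 55.6% of the control mean. The log2 difference was −0.91 (95% interval −1.55 to −0.26, limma adjusted p = 0.272). On GRCm38, the mm10 assembly, the gene lies on the plus strand of chromosome 3, between bases 60472830 and 60629750, with 25 annotated transcripts.

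Mbnl2, its close relative, measured 58.7, 60.1 and 57.4 FPKM in the controls, against 40.7, 40.2 and 54.4 FPKM in K15SKO 1 to 3. The groups did not overlap, but K15SKO 3 was at 92.6% of the control mean. The log2 difference was −0.39 (95% interval −0.73 to −0.04, limma adjusted p = 0.287), and an unadjusted p under 0.05 was lost when any library other than K15SKO 3 was left out, and with the replicate number as a block. Mbnl1 made up 68.5% ± 1.23 of the Mbnl sum in MyoCre and 60.1% ± 6.30 in K15SKO (SD, n = 3 each). The summed level of both genes was 186 ± 5.52 FPKM in MyoCre and 116 ± 34.2 FPKM in K15SKO.

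Rbfox1 and Rbfox2, which bind the same sequence, stood on opposite sides. Rbfox1 measured 95.9, 100.5 and 101 FPKM in the controls, against 51.9, 61.6 and 81.2 FPKM in K15SKO 1 to 3. Rbfox2, the more widely expressed of the pair, measured 9.28, 11 and 10.2 FPKM in the controls, against 20, 17.2 and 11.9 FPKM in K15SKO 1 to 3. In both genes K15SKO 1 was farthest from the controls and K15SKO 3 nearest, with no overlap between the groups. The log2 differences were −0.63 (95% interval −1.05 to −0.21) for Rbfox1 and 0.61 (0.16 to 1.07) for Rbfox2, with a limma adjusted p of 0.272 for both. Without MyoCre 1, Rbfox2 no longer had an unadjusted p under 0.05. The ratio of Rbfox1 to Rbfox2 was 10.3, 9.11 and 9.93 in MyoCre and 2.60, 3.58 and 6.80 in K15SKO 1 to 3. Rbfox2 therefore made up 9.29% ± 0.548 of the Rbfox sum in MyoCre and 20.8% ± 7.53 in K15SKO (SD, n = 3 each). Rbfox1 lies on chromosome 16 between bases 5885355 and 7411526 (plus strand), and Rbfox2 on chromosome 15 between bases 77078990 and 77307004 (minus strand).

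**Figure D1:**
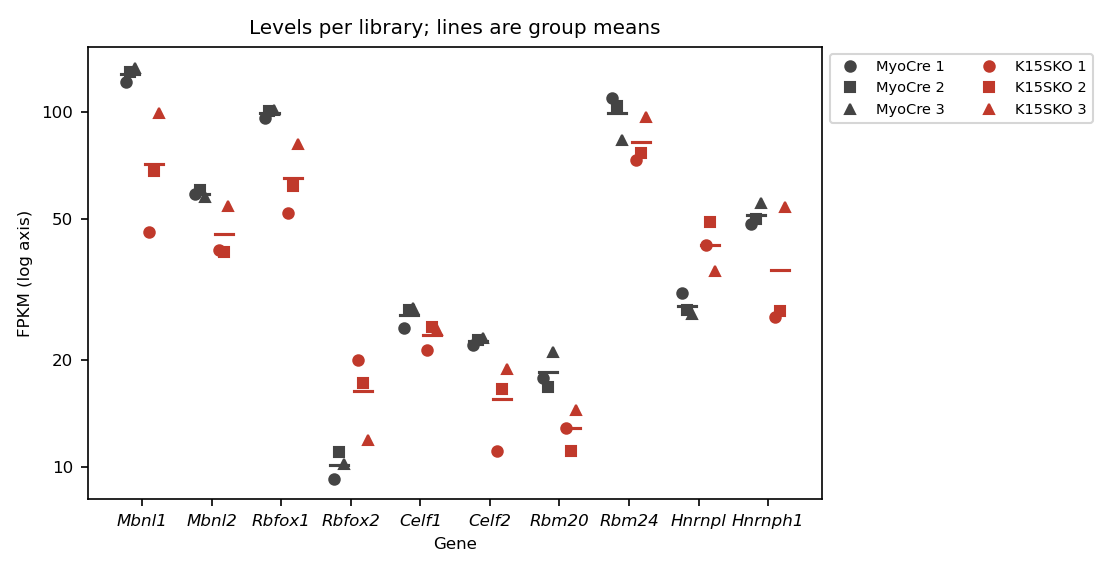
FPKM on a log axis for 10 splicing regulators, with each library as a point (MyoCre dark grey, K15SKO red, shapes for replicates 1 to 3) and the group mean as a line. The red points of Mbnl1, Mbnl2, Rbfox1, Celf2 and Rbm20 all lie below the grey points, those of Rbfox2 and Hnrnpl above, and the triangles of K15SKO 3 mostly lie nearest to the controls.

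Celf1 and Celf2 are antagonists of Mbnl at many exons. Celf2 measured 22.0, 22.8 and 23.0 FPKM in the controls, against 11.1, 16.6 and 18.9 FPKM in K15SKO 1 to 3, with no overlap (log2 difference −0.54, 95% interval −1.0 to −0.08, limma adjusted p = 0.281). Without K15SKO 1 the difference was −0.33, and leaving out any of the MyoCre libraries took its unadjusted p past 0.05. Celf1 measured 24.6, 27.7 and 28.1 FPKM in the controls, against 21.3, 24.8 and 24.3 FPKM in K15SKO, where the groups overlapped (log2 difference −0.18, 95% interval −0.45 to 0.08, limma adjusted p = 0.399). The ratio of Mbnl1 to Celf1 was 4.94, 4.65 and 4.72 in MyoCre and 2.15, 2.74 and 4.08 in K15SKO 1 to 3. The ratio of Celf1 to Celf2 was 1.12, 1.22 and 1.22 in MyoCre and 1.92, 1.49 and 1.28 in K15SKO 1 to 3. Neither ratio overlapped between the groups. The ratio of Ptbp2 to Ptbp1, also taken, did overlap, at 1.44, 1.86 and 1.30 in MyoCre and 1.00, 1.09 and 1.67 in K15SKO 1 to 3. No share over all genes stands beside such ratios.

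Rbm20 measured 17.8, 16.8 and 21 FPKM in the controls, against 12.9, 11.1 and 14.5 FPKM in K15SKO 1 to 3. Its highest knockout value lay below its lowest control value, and K15SKO 2 was the lowest library. The log2 difference was −0.50 (95% interval −0.83 to −0.17, limma adjusted p = 0.272). Rbm24 measured 109, 104 and 83.4 FPKM in the controls, against 73.1, 76.3 and 96.8 FPKM in K15SKO 1 to 3, and the groups overlapped (log2 difference −0.27, 95% interval −0.66 to 0.13, limma adjusted p = 0.407). Rbm24 was thus among the highest members in both groups, with a mean of 90.4 FPKM over the 6 libraries, below Mbnl1 at 99.4 FPKM and above Rbfox1 at 82.0 FPKM.

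**Figure D2:**
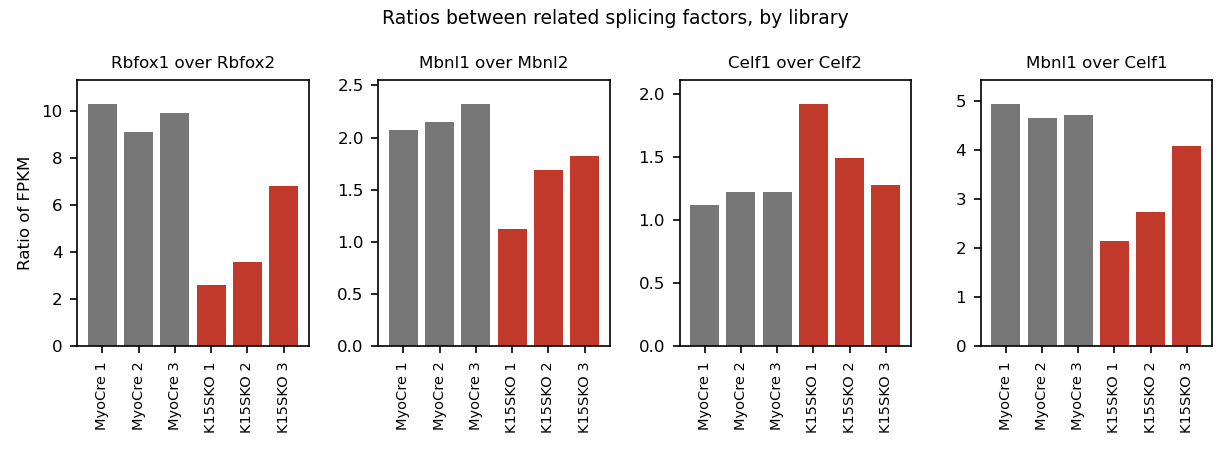
Ratios of FPKM between pairs of splicing factors as bars from 0, one bar per library (MyoCre grey, K15SKO red). Rbfox1 over Rbfox2, Mbnl1 over Mbnl2 and Mbnl1 over Celf1 are lower in all 3 K15SKO libraries and Celf1 over Celf2 is higher.

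The Ptbp genes overlapped between the groups. Ptbp1 measured 5.64, 5.30 and 5.85 FPKM in the controls, against 6.82, 7.60 and 5.43 FPKM in K15SKO 1 to 3 (log2 difference 0.20, 95% interval −0.11 to 0.51, limma adjusted p = 0.422). K15SKO 1 and 2 lay above all controls and K15SKO 3 among them. Ptbp2 had group means of 8.51 ± 1.17 and 8.07 ± 1.13 FPKM, and Ptbp3 of 2.12 ± 0.387 and 2.00 ± 0.361 FPKM (MyoCre and K15SKO, SD, n = 3 each). Intervals of their log2 differences ran from −0.40 to 0.27 and from −0.43 to 0.32.

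The 20 hnRNPs held 2 members at an unadjusted p under 0.05, Hnrnpl and Hnrnpr, and 3 whose groups did not overlap. These shares were 10% and 15%, against 16.5% and 24.7% of all genes tested. Hnrnpl, which binds CA-rich RNA, measured 30.8, 27.6 and 27.0 FPKM in the controls, against 42.0, 48.8 and 35.7 FPKM in K15SKO 1 to 3. Each K15SKO library was above each control, at 148%, 171% and 125% of the control mean. The log2 difference was 0.54 (95% interval 0.20 to 0.88, limma adjusted p = 0.269), the smallest p among the members. Hnrnpr measured 6.76, 7.49 and 8.75 FPKM in the controls, against 8.62, 10.3 and 10.5 FPKM in K15SKO, with K15SKO 1 just under the highest control (log2 difference 0.32, 95% interval 0.02 to 0.62, limma adjusted p = 0.294). Its unadjusted p was over 0.05 without MyoCre 1, MyoCre 2, K15SKO 2 or K15SKO 3. The same held with all 6 libraries under the limma setting eBayes without trend.

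Hnrnph1, which binds runs of G, was split within the knockout group. It stood at 48.2, 49.8 and 55.3 FPKM in MyoCre, at 26.5 and 27.4 FPKM in K15SKO 1 and 2, and at 53.8 FPKM in K15SKO 3. K15SKO 1 and 2 were at 51.9% and 53.6% of the control mean, and K15SKO 3 lay within the control range. Over the 3 libraries the log2 difference was −0.57 (95% interval −1.23 to 0.09, limma adjusted p = 0.330). Without K15SKO 3 it was −0.90, with a limma adjusted p of 0.00853. Its relatives Hnrnph2 and Hnrnph3 were nearer to the controls there. Hnrnph2 was at 25.8 and 24.1 FPKM and Hnrnph3 at 7.33 and 8.46 FPKM in K15SKO 1 and 2, against MyoCre means of 22.8 ± 2.20 and 9.52 ± 1.78 FPKM (SD, n = 3).

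Hnrnpab stood at 54.9 ± 3.94 FPKM in MyoCre and 64.3 ± 4.06 FPKM in K15SKO, and Hnrnpd, which also binds AU-rich elements of unstable mRNAs, at 18.7 ± 0.711 and 21.4 ± 1.32 FPKM (SD, n = 3 each). Neither gene overlapped between the groups, and limma adjusted p was 0.337 and 0.350. Hnrnpa2b1, the most abundant member, measured 199, 200.3 and 217 FPKM in the controls, against 195, 222 and 257 FPKM in K15SKO 1 to 3, where the groups overlapped (log2 difference 0.12, 95% interval −0.21 to 0.45). Log2 differences of the 20 hnRNPs ran from −0.57 to 0.54, with 12 above 0 and 8 below, and their median was 0.04 against −0.02 over all genes tested. Their summed level was 630.0 ± 23.8 FPKM in MyoCre and 668 ± 51.7 FPKM in K15SKO.

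The 10 SR proteins held 0 members at an unadjusted p under 0.05, against 16.5% of all genes tested, and 0 whose groups did not overlap, against 24.7%. Srsf9 had the smallest p, at 5.49, 5.54 and 5.61 FPKM in MyoCre and 7.86, 7.05 and 5.34 FPKM in K15SKO 1 to 3 (log2 difference 0.23, 95% interval −0.10 to 0.56, limma adjusted p = 0.399). Its control values lay close together, K15SKO 1 and 2 above them and K15SKO 3 below. Srsf6 stood at 28.3 ± 1.28 and 25.0 ± 3.79 FPKM, Srsf7 at 15.2 ± 1.72 and 13.5 ± 3.91 FPKM and Srsf10, a repressor regulated by dephosphorylation, at 11.8 ± 0.568 and 10.1 ± 2.58 FPKM (MyoCre and K15SKO, SD, n = 3 each). In these 3 genes K15SKO 1 and 2 lay below all controls, and K15SKO 3 was above the control mean. Srsf5 stood at 40.6 ± 6.54 and 46.8 ± 6.98 FPKM and Srsf2, the most abundant SR protein, at 50.8 ± 4.99 and 53.0 ± 4.19 FPKM. The sum of the SR proteins was 219 ± 10.4 FPKM in MyoCre and 224 ± 25.8 FPKM in K15SKO, and log2 differences ran from −0.23 to 0.23.

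**Figure D3:**
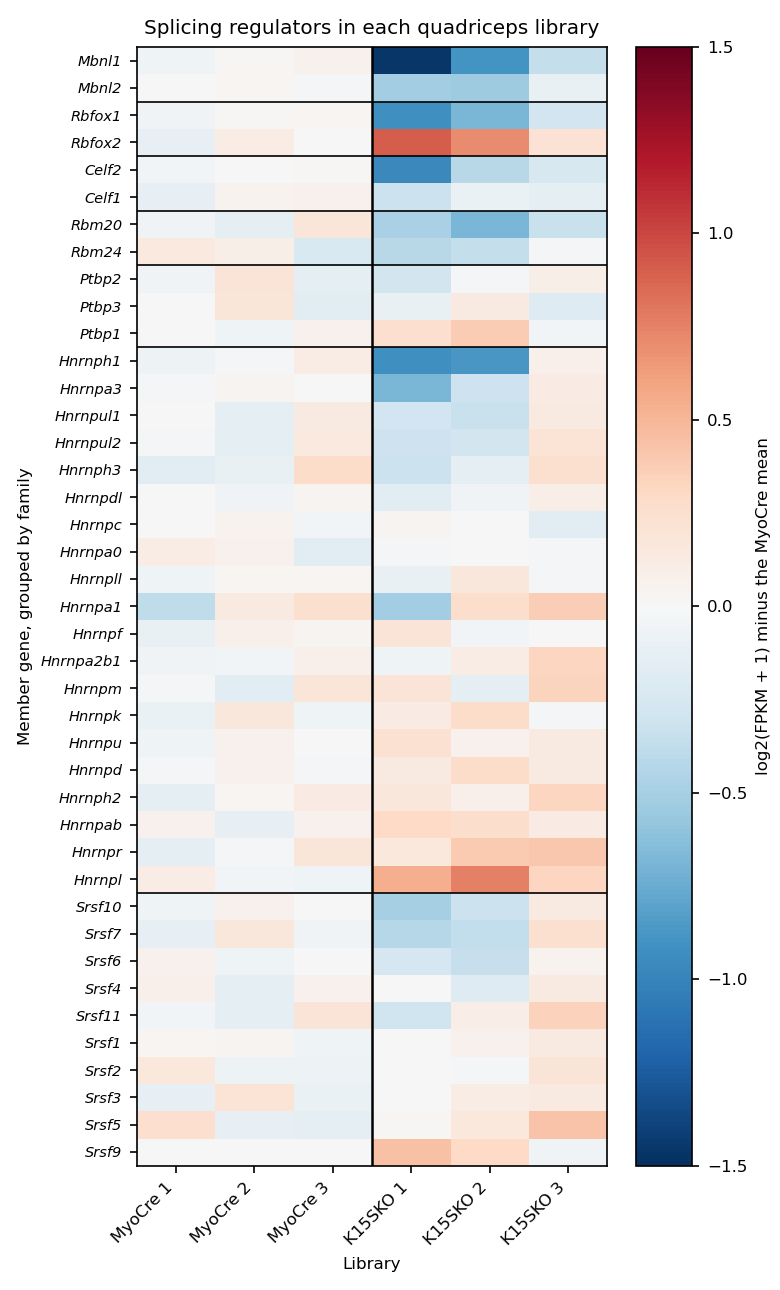
Each row is a member, grouped by family, each column a library, and colour is log2(FPKM + 1) minus the mean of the MyoCre libraries (blue lower, red higher). Mbnl1 in K15SKO 1 is the lowest cell at −1.46, Rbfox2 in K15SKO 1 the highest at 0.91, and most Srsf and Hnrnp rows are pale.

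**Figure D4:**
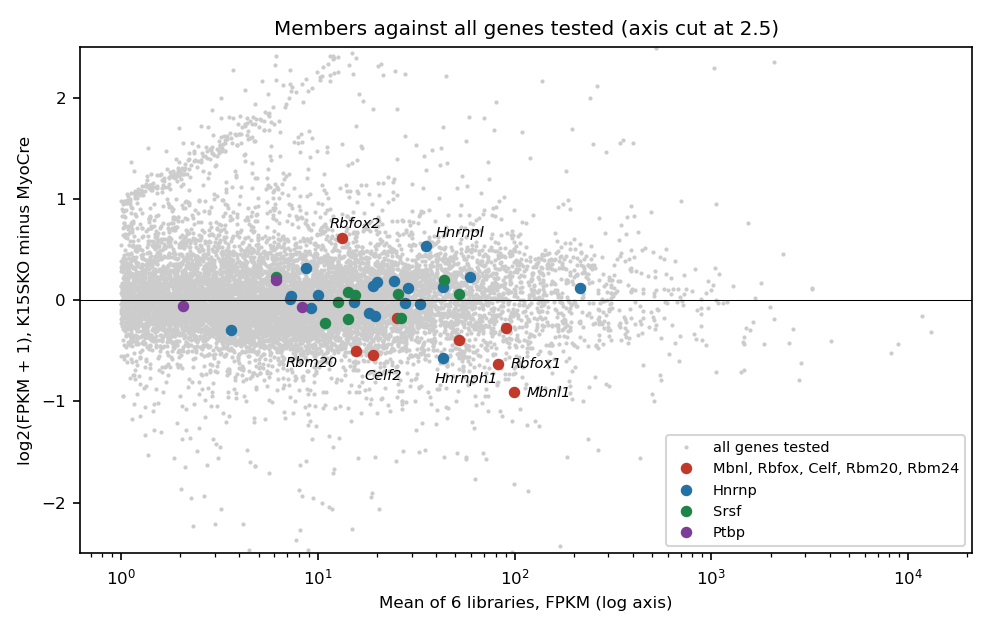
Log2 difference between the genotypes against the mean FPKM of the 6 libraries (log axis), for all genes tested in grey and members in colour by family, with the vertical axis cut at 2.5. Mbnl1 and Rbfox1 combine high levels (99.4 and 82.0 FPKM) with differences of −0.91 and −0.63, while Srsf members lie between −0.23 and 0.23.

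The K15SKO libraries were not alike. The distance of a member from the MyoCre mean on the log2(FPKM + 1) scale had a median of 0.27, 0.26 and 0.14 in K15SKO 1 to 3, against 0.32, 0.28 and 0.15 over all genes tested. For 7 of the 8 members at an unadjusted p under 0.05, K15SKO 3 was the nearest to the controls, and the exception was Hnrnpr. K15SKO 3 was the nearest for 21 of all 41 members (51.2%) and for 58.7% of all genes tested. Klf15 was highest in K15SKO 2 among the knockout libraries, while Mbnl1, Rbfox1 and Celf2 were highest in K15SKO 3. Without K15SKO 3, limma called 10 of 41 members at an adjusted p under 0.05, beside 23.6% of all genes tested. The 3 higher (10.8% of all genes tested) were Rbfox2, Hnrnpl and Srsf9, and the 7 lower (12.8%) were Mbnl1, Mbnl2, Rbfox1, Celf2, Rbm20, Hnrnph1 and Srsf10. There the log2 differences were −1.18 for Mbnl1 (limma adjusted p = 0.0158), −0.80 for Rbfox1 (0.0116) and 0.81 for Rbfox2 (0.0139). The labels give no ground to leave this library out. With an unadjusted p under 0.05 that fit had 17.8% of all genes higher, 23.4% lower and 41.2% in either direction. Array weights, which let limma give each library its own precision, called 8 of 41 members at an adjusted p under 0.05, beside 20.7% of all genes (10.7% higher and 9.94% lower). Rbfox2 and Hnrnpl were higher there, and Mbnl1, Mbnl2, Rbfox1, Celf2, Rbm20 and Hnrnph1 lower. At an unadjusted p under 0.05 the weighted fit had 20.3% of all genes higher, 21% lower and 41.3% in either direction. With the replicate number as a block these shares were 7.49%, 10.2% and 17.6%, and at an adjusted p under 0.05 they were 0.00862%, 0.0172% and 0.0258%, with 0 members.

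Markers of other cell types also differed between the libraries. The 14 muscle fibre markers summed to 22399, 21444 and 25678 FPKM in MyoCre. In K15SKO 1 to 3 they summed to 14698, 15678 and 25739 FPKM, so the sum was low in K15SKO 1 and 2. Of the 14 markers, 11 had a log2 difference below 0 and 3 above, from −0.79 to 0.76. At an unadjusted p under 0.05 in limma, 1 was higher and 0 lower, 7.14% against 16.5% of all genes tested. The 10 markers of regenerating or denervated muscle summed to between 36.5 and 45 FPKM in MyoCre and to 125, 94.8 and 39.7 FPKM in K15SKO 1 to 3. Of the 9 tested, 8 had a log2 difference above 0 and 1 below, with a median of 1.37. For 6 of these 9 the groups did not overlap, all higher, against 13.4% of all genes higher. The 12 macrophage markers summed to 44.7 to 54.0 FPKM in MyoCre and to 346, 194 and 41.2 FPKM in K15SKO, with Itgam at 0 in all MyoCre libraries. The 12 liver markers summed to 0.887 to 4.40 FPKM in MyoCre, with Cps1 at 0, and to 75.1, 6156 and 13 FPKM in K15SKO. Without K15SKO 2, which held most of the liver transcripts, the log2 differences were −0.91 for Mbnl1, −0.60 for Rbfox1, 0.56 for Rbfox2, −0.60 for Celf2, −0.41 for Rbm20 and 0.43 for Hnrnpl. Endothelial markers summed to 47.1 to 60.0 FPKM in MyoCre and 31.3, 37.7 and 67.9 FPKM in K15SKO, and the 9 proliferation markers to 15.2 to 16.6 and 27.8, 22.2 and 13.6 FPKM. Only 3 of the 9 proliferation markers reached a mean of 1 FPKM. Of these 3, 2 had a log2 difference above 0 and 1 below, from −0.88 to 0.31. Adipocyte markers summed to 1301, 1793 and 998 FPKM in MyoCre and 789.6, 575 and 914 FPKM in K15SKO 1 to 3. Over the 8 tested, the median of log2(FPKM + 1) minus the MyoCre mean was −1.77, −2.54 and −2.46 in K15SKO 1 to 3. The groups did not overlap for 7 of these 8, all lower, against 11.3% of all genes lower. Markers of fibro-adipogenic progenitors summed to 436 to 507 FPKM in MyoCre and 348 to 479.9 FPKM in K15SKO. Of these 8 markers, 4 had a log2 difference above 0 and 4 below, from −0.98 to 1.53. The part of these cells in the splicing regulator values was not tested beyond the scaling given next.

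Per 1000 FPKM of summed fibre markers, a scaling chosen after seeing the data, Mbnl1 stood at 5.42, 6.02 and 5.17 in MyoCre and at 3.11, 4.35 and 3.85 in K15SKO 1 to 3. Rbfox1 stood at 4.28, 4.69 and 3.94 against 3.53, 3.93 and 3.15. On this scale both genes were lower in all K15SKO libraries, and the nearest Rbfox1 values were 3.93 in K15SKO 2 and 3.94 in MyoCre 3. With Hnrnph1 they were the 3 of 41 members with no overlap in that direction, where 3.21% of all genes tested had none. Mbnl2, Celf2 and Rbm20 overlapped on this scale, at 2.77, 2.56 and 2.11 for Mbnl2 against 2.62, 2.80 and 2.23. Rbfox2 also overlapped, since K15SKO 3 at 0.464 lay within the control range of 0.397 to 0.515, while K15SKO 1 and 2 stood at 1.36 and 1.1. Hnrnpl stayed above, at 2.86, 3.11 and 1.39 against 1.37, 1.29 and 1.1. In all, 7 of 41 members were higher with no overlap, beside 14.7% of all genes tested. Eno3, Actn3 and Pygm made up 19.3%, 13.6% and 13.3% of the marker sum. Whether the marker genes themselves changed within fibres was not tested.

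**Figure D5:**
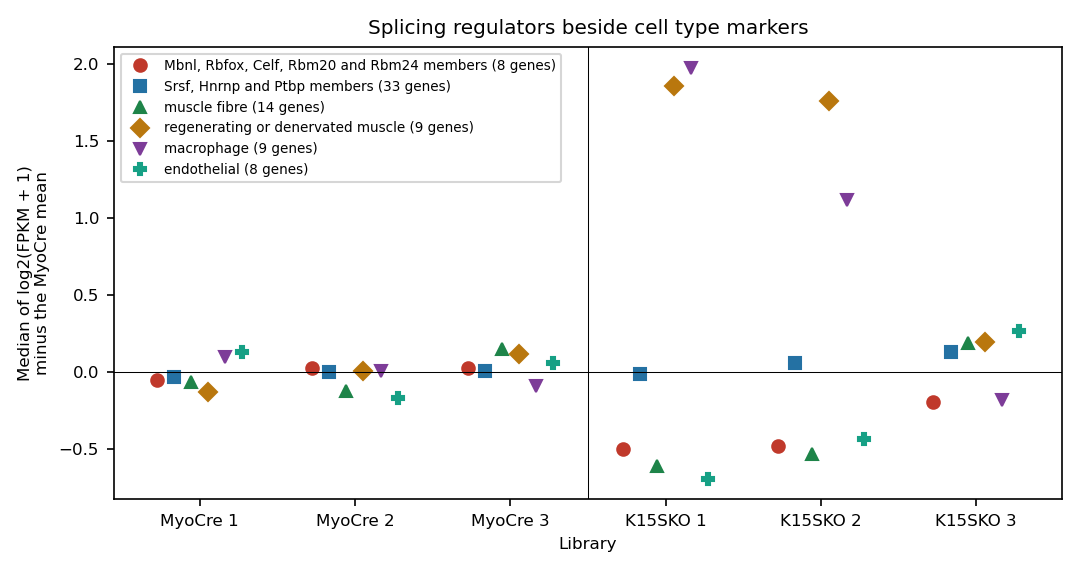
Median over each gene set of log2(FPKM + 1) minus the MyoCre mean, for each library, with one symbol per set (also regenerating muscle, macrophage and endothelial markers). The Mbnl, Rbfox, Celf and Rbm members stand at −0.50, −0.48 and −0.19 in K15SKO 1 to 3, where muscle fibre markers stand at −0.61, −0.53 and 0.19 and the Srsf, Hnrnp and Ptbp members at −0.01, 0.06 and 0.13.

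Other genes of the splicing machinery gave the following counts in the same fit, none with a gene past an adjusted p of 0.05. Of 9 genes that phosphorylate SR proteins or carry them into the nucleus, 1 was higher and 1 lower at an unadjusted p under 0.05, 22.2% against 16.5% of all genes tested. Srpk3, the SR protein kinase of striated muscle, measured 18.5, 18.3 and 20.4 FPKM in the controls, against 38.2, 33.8 and 22.4 FPKM in K15SKO 1 to 3 (log2 difference 0.66, limma adjusted p = 0.272). Dyrk1a stood at 27.5 ± 1.06 and 19.6 ± 5.36 FPKM, and Clk4, a nuclear kinase of SR proteins, at 25.4 ± 2.22 and 20 ± 4.75 FPKM (MyoCre and K15SKO, SD, n = 3 each). Of 17 SR-related activators tested, 0 were called at an unadjusted p under 0.05, against the same 16.5%. Scaf8 stood at 7.35 ± 0.608 and 6.01 ± 1.15 FPKM, Tra2a at 11.2 ± 0.729 and 12.9 ± 1.98, Srrm2 at 38.7 ± 6.46 and 32.6 ± 9.54 and Luc7l2, the highest of them, at 48.3 ± 4.01 and 44.7 ± 12.2 FPKM.

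Of 34 other RNA-binding splicing regulators tested, 3 were higher at an unadjusted p under 0.05 and 0 lower, 8.82% against 16.5% of all genes tested in either direction and 8.43% higher. Rbm4, which promotes muscle exons, measured 1.75, 2.34 and 2.63 FPKM in the controls, against 4.81, 4.06 and 3.29 FPKM in K15SKO 1 to 3. Khdrbs1, the signalling-responsive factor Sam68, stood at 8.16, 8.92 and 8.91 against 11.6, 11.4 and 10.6 FPKM, with K15SKO 3 at 122% and the other knockout libraries at 134% and 131% of the control mean. Rbm3, a cold-induced RNA-binding protein, stood at 12.0, 13.8 and 11.4 against 28.4, 22.6 and 15.1 FPKM. None of these 3 genes, the smallest p of the list, overlapped between the groups, and limma adjusted p was 0.269, 0.269 and 0.272. Over the whole list 8 of 34 genes did not overlap, 6 higher and 2 lower. That was 23.5%, near the 24.7% of all genes tested. Ybx1, the highest of this list, was at 281 ± 25.3 and 283 ± 68.1 FPKM (MyoCre and K15SKO, SD, n = 3 each).

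In the core spliceosome, 1 of 43 genes was higher and 1 lower at an unadjusted p under 0.05 (4.65%, against 16.5% of all genes tested), and the median log2 difference was 0.02. Prpf4, of the U4/U6 particle, stood at 8.50 ± 0.502 and 6.45 ± 1.42 FPKM, Sf3a3, of the U2 particle, at 5.36 ± 0.147 and 6.51 ± 0.627, and the Sm proteins Snrpd1 and Snrpb at 8.93 ± 0.623 and 12.2 ± 2.84 and at 103 ± 0.180 and 96.3 ± 21.2 FPKM (MyoCre and K15SKO, SD, n = 3 each). Of 36 transcripts known to be alternatively spliced in muscle, 2 were higher and 3 lower in level at an unadjusted p under 0.05, 13.9% against 16.5% of all genes tested. Dtna, alpha-dystrobrevin, measured 28.2, 26.9 and 31.9 FPKM in the controls, against 51.7, 40.4 and 41.1 FPKM in K15SKO (log2 difference 0.59, limma adjusted p = 0.251). Lmo7 stood at 11.8 ± 1.33 and 16.7 ± 2.72 FPKM, and Sorbs2 at 26.0, 23.1 and 24.7 against 8.47, 15.6 and 18.8 FPKM (log2 difference −0.81, limma adjusted p = 0.278). Ldb3, a Z-disc protein, was the highest at 930.5 ± 78.2 and 851 ± 144 FPKM. These are levels of whole genes, so which exons they held was not measured.

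The genomic span of the members was also set beside their values. The 6 members spanning over 100 kb were Rbfox1 (1526.2 kb), Celf2 (969.9 kb), Rbfox2 (228.0 kb), Rbm20 (189.8 kb), Mbnl1 (156.9 kb) and Mbnl2 (156.0 kb), and all 6 had an unadjusted p under 0.05, with 5 lower. Over all genes tested the classes of span also differed: 13% of 1266 genes over 100 kb were lower at that p and 4.74% higher, against 5.46% and 13.3% of 3591 genes of up to 10 kb. The limit of 100 kb was chosen after seeing the values. Over the 41 members the Spearman correlation of span and log2 difference was −0.32, a description over genes measured in the same libraries.

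Sequence shared with other genes can split or merge counts. At least 10 percent of the distinct 50-base runs in coding transcripts were also found in transcripts of another gene for 9 members. Of these 9, 0 had an unadjusted p under 0.05, against 19.5% of the 41 members and 16.5% of all genes tested. With 9 genes this count says little. The share of such runs was 46.66% for Hnrnpa1, with 19 genes such as the pseudogene Gm10052. For Hnrnpf it was 36.83%, for Srsf3 31.49% and for Hnrnpa3 27.72%, so the levels of these genes are uncertain. It was 0 for Mbnl1, Mbnl2, Rbfox1, Rbfox2, Celf2 and Rbm20, and 3.18% for Hnrnpl. An exon of 15 members overlapped an exon of a gene on the other strand, Gm26679 for Mbnl2, Gm26565 for Celf2, Gm44702 for Hnrnpl and Gm27022 for Hnrnpr among them. No source used here says whether the counting used strand, so reads of such pairs cannot be told apart.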

How the data were processed

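FPKM in 6 libraries of quadriceps RNA was measured for 23314 genes. The authors deposited these FPKM values as 1 matrix whose header names no unit; it was taken from the software named. Per the submitters' processing notes the reads went through STAR, Cufflinks and Cuffdiff with mm10, versions not stated. Columns were matched by sample description, and 0 belonged to no sample. Depth relative to MyoCre 1, from the steps between values under 0.1 FPKM, was 0.78 to 1.57. Absolute depth cannot be had from FPKM, and counting error is not given.

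The limma 3.58.1 fit (R 4.3.3, intensity trend, two-sided, Benjamini-Hochberg, threshold 0.05) used log2(FPKM + 1) of the 11607 genes averaging 1 FPKM or more. A log2 difference on this scale understates changes of low genes. The procedure was run on simulated data in which all 6 libraries had the spread of MyoCre. Over all genes tested the median SD of log2(FPKM + 1) was 0.115 in MyoCre and 0.224 in K15SKO. The simulation therefore does not cover the wider spread of the K15SKO libraries. The members and lists were chosen with earlier results of these data known. Named genes were every Mbnl, Rbfox, Celf, Ptbp and Rbm member; for Srsf and Hnrnp the 5 with the smallest p and the 3 highest; for each of 5 other lists the 3 with the smallest p and the highest; and Klf15. Hnrnph2, Hnrnph3, Hnrnpa1, Hnrnpa3, Hnrnpf and Srsf3 were named after their values were seen. Positions, transcripts and shared 50-base runs came from GENCODE M21 on GRCm38, where 41 of 41 members matched by ID, 29 with its version; promoters came from RefSeq on GRCm38.p6. Python 3.11.15, numpy 2.4.6, pandas 2.3.3 and matplotlib 3.10.9 were used. Alternatives were 2 pseudocounts, 2 filters, 2 scalings, eBayes without trend, array weights, the replicate block and each library left out. Leaving out genes at 0 in a whole group or members that share sequence, and scaling by fibre markers, were added after seeing the data.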

Additional observations from a re-analysis of the deposited data

How the results depend on the processing

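Counts of members depended on 2 choices above all. With array weights, 2 members were higher and 6 lower at an adjusted p under 0.05 (20.7% of all genes were called), and 7 higher and 10 lower at an unadjusted p under 0.05. With each library left out in turn, members past the adjusted threshold ranged from 0 to 3 higher and 0 to 7 lower, those at an unadjusted p under 0.05 from 1 to 5 higher and 3 to 13 lower, those whose groups did not overlap from 6 to 8 higher and 5 to 13 lower, and the median log2 difference from −0.04 to 0.03. The highest counts at both thresholds came without K15SKO 3, and the lower count of 3 came without each of MyoCre 1, MyoCre 2 and MyoCre 3. Counts of groups that do not overlap grow when a library is removed by construction. No share over all genes is given beside them. In the same limma fits, 427 to 2066 of all 11607 genes were higher and 419 to 2712 lower at an unadjusted p under 0.05. The most in each direction came without K15SKO 3. The pseudocounts, filters, scalings and eBayes without trend kept each count within 1.5 times.

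With the replicate number as a block, 0 members passed the adjusted threshold and 3 were higher and 5 lower at an unadjusted p under 0.05, with a median of −0.02. The lower members were not all those without the block: Mbnl2 was no longer among them, and Hnrnph1 was. Deviations of same-numbered libraries correlated across genes at 0.0024, 0.085 and 0.094, and those of differently numbered libraries at −0.095 to 0.0066. With 3 libraries per group, these values do not decide whether the numbers pair the samples. Whether groups overlap was not recounted under the pseudocounts, filters, eBayes settings, weights or block, which leave the order of values as it is.

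Of 686 values of 43 named genes under 16 refits, 673 kept their direction. The 13 others belonged to 6 genes near 0: Ptbp2 was 0.03 without MyoCre 2 and 0.03 without K15SKO 1; Ptbp3 was 0.03 with array weights, 0.04 without MyoCre 2 and 0.01 without K15SKO 3. Srsf2 was −0.02 with array weights and 0.00 without K15SKO 3, and Luc7l2 was 0.04 without K15SKO 1. Snrpb was 0.02 without K15SKO 2, and Ybx1 was 0.02 with median-of-ratios scaling, 0.05 without MyoCre 3, 0.04 without K15SKO 1 and 0.12 without K15SKO 2. The cause was not tested. Leaving out each library in turn, the range was −0.15 to 0.03 for Ptbp2, −0.15 to 0.04 for Ptbp3, 0.00 to 0.14 for Srsf2, −0.34 to 0.04 for Luc7l2, −0.29 to 0.02 for Snrpb and −0.20 to 0.12 for Ybx1. Over these refits limma adjusted p ran from 0.0158 to 0.581 for Mbnl1, from 0.0116 to 0.581 for Rbfox1, from 0.0139 to 0.581 for Rbfox2 and from 0.0188 to 0.581 for Hnrnpl; Mbnl1, Rbfox1, Rbm20 and Hnrnpl kept an unadjusted p under 0.05 in 16 of 16 and Rbfox2 in 15.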
